A study of Mus musculus with 60 samples.

Results

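The genes described here are 9 genes of triglyceride and glycerol phosphate synthesis, chosen by name: Gpam, Gpat3, Agpat2, Lpin1, Dgat1, Dgat2, Gpd1, Gpd2 and Pck1. The choice was made with earlier results of these data known, so counts among the 9 are a description. Each symbol matched 1 row of the 54352 genes in the deposited count table. RNA was read by 3′ digital gene expression, a bulk method that counts tags from the 3′ ends of transcripts. From each of 20 C57BL/6JN mice came a piece of subcutaneous fat (scWAT, for white adipose tissue), of visceral fat (vWAT) and of triceps muscle, and the 60 libraries formed 12 groups of 5. In each tissue the groups were HFD trained, HFD sedentary, chow trained and chow sedentary. HFD mice ate a high-fat diet with 60% of energy from fat for 6 weeks, and chow mice ate a diet with 10%. Trained mice had voluntary wheel running in weeks 3 to 6, which sedentary mice did not have. All mice were 12 weeks old at collection and had fasted for 6 hours, and wheels had been locked for 24 hours.

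A triglyceride is built from glycerol 3-phosphate and activated fatty acids. Glycerol 3-phosphate acyltransferases add the first fatty acid, acylglycerophosphate acyltransferases add the second, lipins remove the phosphate to leave diacylglycerol, and diacylglycerol acyltransferases add the last fatty acid. Fat cells hold little glycerol kinase, so their glycerol 3-phosphate comes mainly from glucose, through the cytosolic glycerol 3-phosphate dehydrogenase, or from smaller precursors in glyceroneogenesis, in which the cytosolic phosphoenolpyruvate carboxykinase takes part. The mitochondrial glycerol 3-phosphate dehydrogenase works the other way: it oxidises glycerol 3-phosphate and passes the electrons to the respiratory chain, closing the glycerol phosphate shuttle.

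Among the 9 genes, Gpam encodes the acyltransferase of the mitochondrial outer membrane and Gpat3 one of the endoplasmic reticulum. Agpat2 encodes the second acyltransferase of fat cells, whose loss causes congenital generalised lipodystrophy in humans. Lpin1 encodes lipin 1, the phosphatidate phosphatase that is mutated in the fatty liver dystrophy mouse. Dgat1 and Dgat2 encode unrelated diacylglycerol acyltransferases. Gpd1, Gpd2 and Pck1 encode the cytosolic dehydrogenase, the mitochondrial dehydrogenase and the carboxykinase.

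In mm10, Gpam (ENSMUSG00000024978) lies on chromosome 19 at 55067268 to 55127238, minus strand, and Gpat3 (ENSMUSG00000029314) on chromosome 5 at 100845713 to 100899102, plus strand. Agpat2 (ENSMUSG00000026922) lies on chromosome 2 at 26593057 to 26604417, minus strand, and Lpin1 (ENSMUSG00000020593) on chromosome 12 at 16535669 to 16610966, minus strand. Dgat1 (ENSMUSG00000022555) lies on chromosome 15 at 76502015 to 76511953, minus strand, and Dgat2 (ENSMUSG00000030747) on chromosome 7 at 99153658 to 99182719, minus strand. Gpd1 (ENSMUSG00000023019) lies on chromosome 15 at 99717515 to 99725005, plus strand. Gpd2 (ENSMUSG00000026827) and Pck1 (ENSMUSG00000027513) lie on the plus strand of chromosome 2, at 57237635 to 57370719 and at 173153048 to 173159273.

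The stretches just before the annotated gene starts of Agpat2, Gpd2 and Pck1 are given because these genes carried the largest falls with the diet in scWAT. The sequences are from RefSeq on GRCm38.p6, each on the strand of its gene, and capitals mark a match to a searched motif. They lie at chr2:26604418-26604667 for Agpat2, chr2:57237428-57237634 for Gpd2 and chr2:173152823-173153047 for Pck1.
Agpat2: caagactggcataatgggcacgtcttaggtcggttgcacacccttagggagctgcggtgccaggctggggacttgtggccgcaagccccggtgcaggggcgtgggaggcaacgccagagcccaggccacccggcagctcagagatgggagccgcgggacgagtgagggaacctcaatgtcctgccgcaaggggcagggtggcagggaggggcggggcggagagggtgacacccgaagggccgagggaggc
Gpd2: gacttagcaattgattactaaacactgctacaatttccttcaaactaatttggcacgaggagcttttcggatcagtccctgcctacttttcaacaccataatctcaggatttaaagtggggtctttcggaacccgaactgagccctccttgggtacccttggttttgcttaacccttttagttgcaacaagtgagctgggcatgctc
Pck1: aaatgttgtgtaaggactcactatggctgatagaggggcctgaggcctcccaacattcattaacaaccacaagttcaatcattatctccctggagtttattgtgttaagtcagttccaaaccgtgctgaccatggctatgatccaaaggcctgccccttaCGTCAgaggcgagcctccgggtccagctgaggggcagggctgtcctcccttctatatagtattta
The letters CGTCA, the core of a cAMP response element, stood at −90 to −86 from the RefSeq start of Pck1. They also stood in windows not shown, of Gpat3 (−152 to −148) and of Gpam (−31 to −27 and −9 to −5). Within 250 bases before the start, on either strand, CGTCA was found in 17.9% of 32536 promoter windows. CCAAT, searched in the same way, stood in 33.8% of the windows. The E-box letters CACGTG stood in 6.04%, the TATA-box letters TATAAA in 12.3%, and the nuclear receptor letters AGGTCA in 14%. None of the 5 motifs was found in the stretches shown for Agpat2 and Gpd2. In windows not shown, AGGTCA stood before Lpin1 and Gpam, and CCAAT before another start of Gpam. Of the 9 genes, 6 matched a promoter window, and Dgat1, Dgat2 and Gpd1 are named only.

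Total estimated counts ran from 505336 to 720220 per library in scWAT, from 580173 to 689060 in vWAT and from 651030 to 744581 in triceps. Levels are counts scaled to a library of 1000000 after TMM normalisation within a tissue (CPM), so CPM of different tissues are set side by side without a test except where both fat depots were fitted together. All 6 adipocyte markers were detected in both depots, with 11401 to 27620 summed reads in scWAT and 19723 to 30040 in vWAT, against 190 to 576 in triceps. In scWAT, 6 libraries, all from chow mice, also held lymph node transcripts, with 148 to 367 reads of 5 B cell genes against 2 to 10 in the other 14. Summed reads of 7 skeletal muscle genes in scWAT spanned 49 to 52437. On HFD they were 49 to 909 in trained and 176 to 33429 in sedentary libraries. On chow they were 119 to 52437 in trained and 59 to 14178 in sedentary libraries. The sample labels and headers name no library run. Runs here are blocks of up to 12 consecutive library codes, placed where reads of organs not sampled changed. In scWAT they held 9 and 11 libraries with every group in each. In triceps, and likewise in vWAT, they held 5 chow libraries, 12 libraries of all groups and 3 HFD libraries. The 3 vWAT libraries of HFD mice held 1241 to 2042 muscle reads and 129 to 173 intestinal reads, a kind of read that was used to place the runs. They fell in the same inferred run as the 5 triceps chow libraries. Those 5 held 85 to 121 intestinal reads, against 0 in the other triceps runs. Whether such reads came from the dissected fat was not tested.

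All 9 genes passed the filter on low counts in both depots. In scWAT each was seen in every library, from 10 counts (Gpat3 in a chow sedentary library) to 1056 counts (Pck1). In triceps 5 passed: Gpam, Lpin1, Dgat2, Gpd1 and Gpd2. Gpat3, Agpat2, Dgat1 and Pck1 had 0 to 8 counts per triceps library, 32, 49, 43 and 64 counts over all 20, and were at 0 in 5, 2, 5 and 2 libraries. At these depths a count of 0 in triceps allows up to 4.03 to 4.61 CPM. These 4 genes were therefore not tested in triceps.

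**Figure D1:**
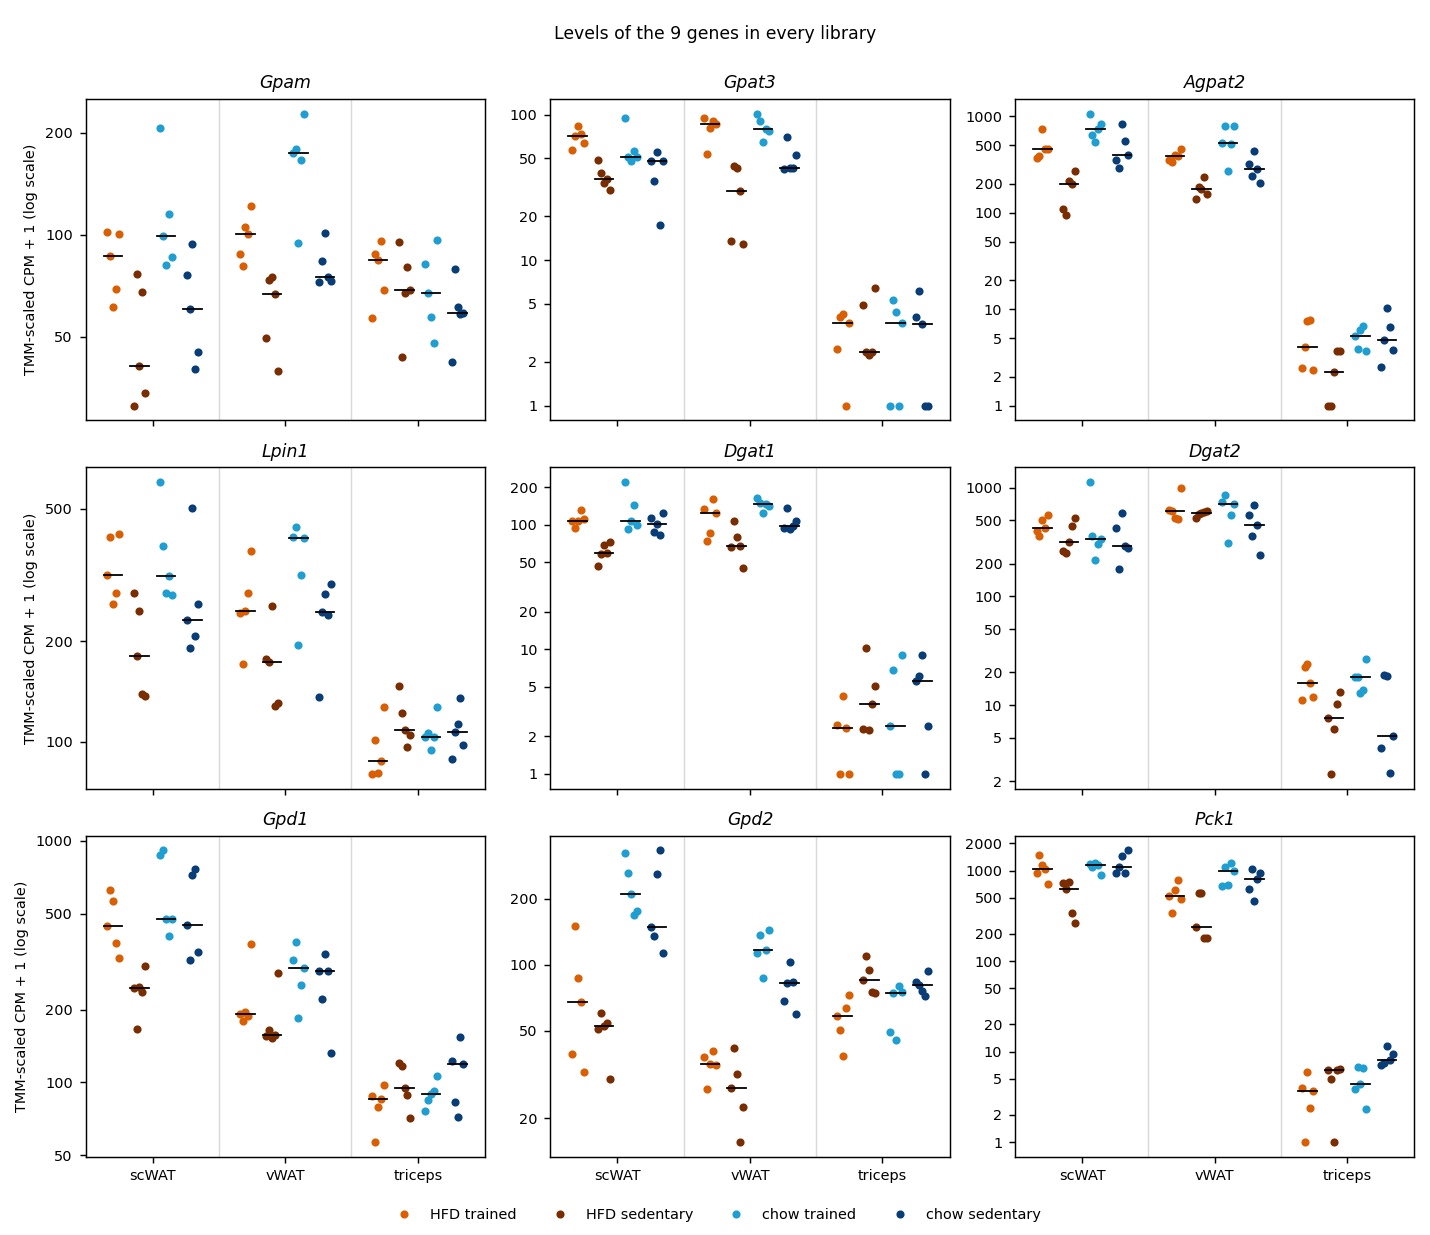
Level of each gene in every library, as TMM-scaled CPM plus 1 on a log axis, by tissue and group. Points are single libraries and horizontal lines are medians of 5. Gpat3, Agpat2, Dgat1 and Pck1 stay at or below 10.7 CPM in triceps, while Gpam, Lpin1, Gpd1 and Gpd2 lie above 37 CPM there.

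With HFD, Gpd2 fell in both depots, in sedentary and in trained mice, and Gpd1, Pck1, Agpat2 and Dgat1 fell in scWAT of sedentary mice. With training on HFD, Agpat2 rose in both depots, Dgat1 in scWAT, and Gpat3 and Gpam in vWAT. In scWAT, Pck1 and Gpd1 had fitted changes of 0.99 and 0.96 with training on HFD that were not called. Each p is two-sided, from the quasi-likelihood test of edgeR with Benjamini-Hochberg adjustment over all genes tested in the tissue, and a gene was called at an adjusted p under 0.05. In scWAT of sedentary mice 5 of the 9 genes were called lower with HFD and 0 higher, where 6.35% of all genes were called, 3.55% higher and 2.8% lower. The median log2 fold change of the 9 was −0.74, against −0.05 over all genes tested. In scWAT of trained mice 1 was called lower (5.16% of all genes called, 3.15% higher and 2.01% lower), with a median of −0.26. With training on HFD 2 of 9 were called higher in scWAT (1% of all genes called, 0.707% higher and 0.297% lower), with a median of 0.86 against −0.01 over all genes. In vWAT 1 of 9 was called lower with HFD in sedentary mice (8.07% called, 3.92% higher and 4.15% lower) and 2 of 9 in trained mice (2.62% called, 1.2% higher and 1.42% lower), with medians of −0.53 and −0.42. With training 3 of 9 were called higher in vWAT on HFD (3.09% called, 1.22% higher and 1.87% lower) and 1 of 9 on chow (0.587% called, 0.272% higher and 0.315% lower), with medians of 0.66 and 0.57. The diet comparison in sedentary mice and the training comparison on HFD share the HFD sedentary libraries, so their opposite signs are not separate evidence.

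**Figure D2:**
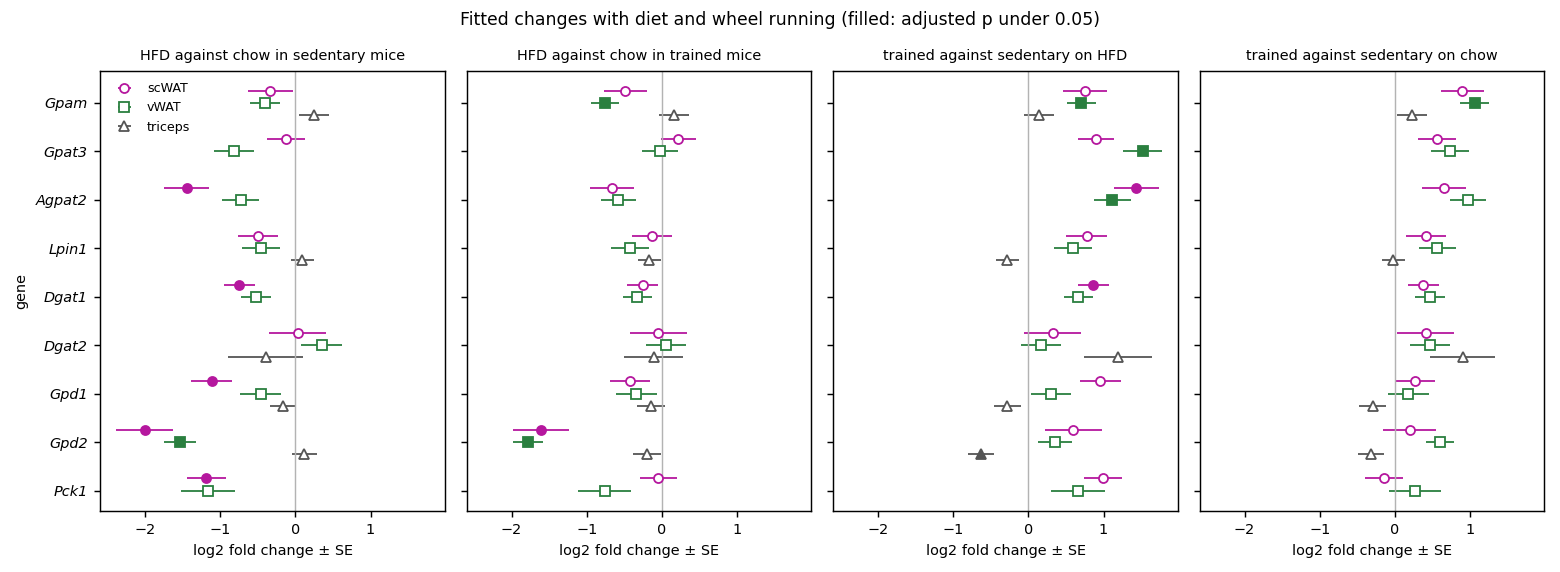
Fitted log2 fold changes with their SE for the 9 genes in scWAT, vWAT and triceps, for HFD against chow in each activity group and for trained against sedentary on each diet. Filled symbols passed an adjusted p of 0.05. Gpd2 is filled in both diet panels for both depots, and Agpat2 is filled for both depots in the panel of training on HFD.

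Of the genes for the first acylation, Gpat3 changed with training on HFD in vWAT. Gpat3 was at 93.7, 52.4, 80.5, 89.4 and 85.4 CPM in vWAT of HFD trained mice, against 12.5, 43.6, 42.1, 29.1 and 12.0 CPM in HFD sedentary mice. In chow trained mice it was at 100.2, 89.9, 64.1, 79.1 and 76.6 CPM, against 41.3, 69.6, 42.2, 41.8 and 52.1 CPM in chow sedentary mice. All 5 HFD trained libraries lay above all 5 HFD sedentary libraries, while on chow the lowest trained library lay under the highest sedentary library. Gpat3 rose with training on HFD by 1.52 log2 units (SE 0.26, adjusted p = 0.000946), a call that held in every alternative run. On chow the fitted change was 0.73 (SE 0.25, adjusted p = 0.261), and the test of the difference between both training effects gave 0.79 (SE 0.36, adjusted p = 0.693). In scWAT, Gpat3 was at 55.9 to 82.97 CPM in HFD trained and 29.1 to 47.5 CPM in HFD sedentary libraries without overlap, but was not called (0.90, SE 0.24, adjusted p = 0.0723). It was called with the library run as a factor (0.92, adjusted p = 0.0403). With HFD in sedentary mice Gpat3 had a fitted change of −0.82 in vWAT (SE 0.27, adjusted p = 0.0622) and −0.12 in scWAT (SE 0.25, adjusted p = 0.83).

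Gpam rose with training in vWAT on both diets. It was at 86.6, 80.0, 104, 99.6 and 121 CPM in vWAT of HFD trained mice, against 48.7, 72.6, 74.3, 66.1 and 38.7 CPM in HFD sedentary mice. It was at 174, 178, 93.4, 165 and 227 CPM in chow trained mice, against 71.4, 82.9, 100.5, 74.0 and 72.2 CPM in chow sedentary mice. On HFD the groups did not overlap, and on chow only trained replicate 3 lay within the sedentary range. Gpam rose by 1.06 on chow (SE 0.19, adjusted p = 0.00232) and by 0.70 on HFD (SE 0.20, adjusted p = 0.0381). The call on HFD was lost without any of 7 libraries (HFD sedentary replicates 1, 4 and 5, HFD trained replicates 1, 3, 4 and 5), with changes of 0.58 to 0.75 and adjusted p values of 0.0576 to 0.167. Without the 3 libraries with muscle and intestinal reads it was 0.45 (adjusted p = 0.499), and within the run of 12 libraries also 0.45 (adjusted p = 0.487), with fewer libraries in both groups. On total counts without TMM its adjusted p was 0.0609. Chow trained replicate 3, the low library, held 1210 reads of epididymis and testis genes, against at most 32 in vWAT of the other 3 groups, and the lowest adipocyte sum of the depot, at 19723 reads. This library was the lowest of its group in 8 of the 9 genes. The part of these reads in the levels was not tested.

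Between diets, Gpam was lower in vWAT of HFD trained than of chow trained mice, by 0.76 log2 units (SE 0.19, adjusted p = 0.0163). This call was lost without HFD trained replicate 1 or 2 or chow trained replicate 5, with adjusted p values of 0.0591 to 0.0868. With the library run as a factor the change was −0.68 (adjusted p = 0.119), and within the run of 12 libraries it was −0.84 (adjusted p = 0.0699). In scWAT Gpam averaged 82.9 ± 18.3 CPM in HFD trained, 49.2 ± 20.7 in HFD sedentary, 117 ± 51.3 in chow trained and 62.1 ± 22.2 CPM in chow sedentary mice (SD, n = 5 each). No Gpam comparison passed in scWAT, and fitted training effects were 0.75 on HFD (SE 0.29, adjusted p = 0.29) and 0.90 on chow (SE 0.29, adjusted p = 0.637).

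Agpat2, which makes phosphatidate, fell with HFD in scWAT of sedentary mice and rose with training on HFD in both depots. In scWAT it was at 371, 384, 729, 457 and 453 CPM in HFD trained mice, against 109, 94.3, 213, 195 and 269 CPM in HFD sedentary mice. It was at 1056, 643, 540.2, 727 and 833 CPM in chow trained mice, against 348, 291, 821, 558 and 391 CPM in chow sedentary mice. The HFD sedentary libraries lay below every library of the other 3 groups. The fall with HFD in sedentary mice was 1.45 log2 units (SE 0.30, adjusted p = 0.0048), and the difference between HFD trained and chow trained mice was −0.66 (SE 0.29, adjusted p = 0.184). Agpat2 rose with training on HFD by 1.44 (SE 0.30, adjusted p = 0.0162). With replicate 1 of HFD sedentary or replicate 3 of HFD trained mice left out that rise was 1.24 to 1.31, with adjusted p values of 0.0567 and 0.0663.

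In vWAT, Agpat2 was at 348, 333, 398, 387 and 453 CPM in HFD trained mice, against 136, 182, 174, 233 and 155 CPM in HFD sedentary mice. These groups did not overlap, and Agpat2 rose by 1.12 (SE 0.24, adjusted p = 0.0156), or by 1.08 with an adjusted p of 0.0663 without HFD sedentary replicate 5. Without the 3 vWAT libraries that held muscle and intestinal reads, the change was 0.98 (adjusted p = 0.275), with fewer libraries in both groups. On chow Agpat2 was at 271 to 796 CPM in trained and 203 to 433 CPM in sedentary mice, a fitted change of 0.97 (SE 0.24, adjusted p = 0.0886). The diet change in sedentary mice was −0.73 (SE 0.25, adjusted p = 0.0815), and that in trained mice −0.58 (SE 0.24, adjusted p = 0.27).

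Median macrophage reads were lower in HFD trained than in HFD sedentary mice in both depots, with overlapping ranges. Summed reads of 5 macrophage genes, all detected, were 388 to 895 in vWAT of HFD trained mice, 709 to 3385 in HFD sedentary, 197 to 512 in chow trained and 370 to 485 in chow sedentary mice. The sum of 3385 was in the run of 3 HFD libraries, and the run of 12 held at most 1570. In scWAT the sums were 125 to 345 in HFD trained and 265 to 769 in HFD sedentary mice. On chow they were 91 to 746 in trained and 180 to 670 in sedentary mice. Adipocyte sums in vWAT overlapped, at 22469 to 30040 reads in HFD trained, 24613 to 27642 in HFD sedentary, 19723 to 25978 in chow trained and 24349 to 27598 in chow sedentary mice. In bulk tissue, fewer cells of a type and less RNA per cell cannot be told apart. An adipocyte covariate, an alternative chosen after seeing the data, was built from the markers Adipoq, Plin1, Cidec and Fabp4. The markers Lep and Retn, which are in the sums above, were left out of it. With this covariate Agpat2 in vWAT kept its rise on HFD at 1.12 (adjusted p = 0.02), Gpat3 at 1.59 (adjusted p = 0.000257) and Gpam at 0.75 (adjusted p = 0.0184). The part of macrophage RNA in these results was not tested.

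**Figure D3:**
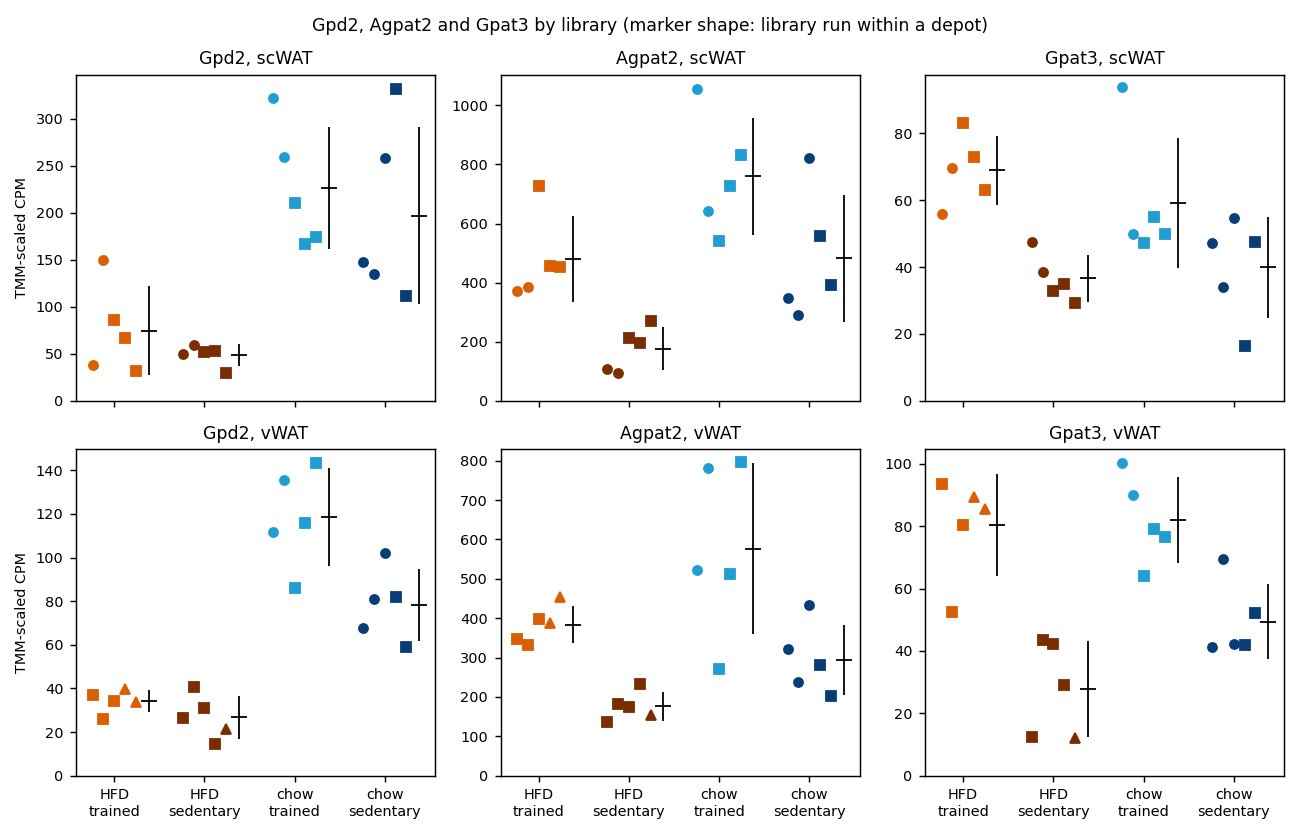
TMM-scaled CPM of Gpd2, Agpat2 and Gpat3 in every scWAT (top) and vWAT (bottom) library, on axes from 0, with the mean and SD of 5 beside each group. Marker shapes show the library runs of a depot. Both HFD groups of Gpd2 lie below both chow groups in vWAT, and the HFD sedentary libraries of Agpat2 lie below those of HFD trained mice in both depots.

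Lpin1, which removes the phosphate from phosphatidate, was not called in any comparison of diet or training. In scWAT it averaged 337 ± 75.2 CPM in HFD trained, 196 ± 63.8 in HFD sedentary, 370.2 ± 136 in chow trained and 277 ± 128 CPM in chow sedentary mice (SD, n = 5 each). In vWAT the averages were 262 ± 73.5, 172 ± 51.9, 353 ± 100.1 and 238 ± 62.2 CPM in the same order of groups. All its groups overlapped with their counterparts. The fitted change with training on HFD was 0.78 in scWAT (SE 0.27, adjusted p = 0.236) and 0.60 in vWAT (SE 0.25, adjusted p = 0.25). With HFD in sedentary mice it was −0.50 in scWAT (SE 0.27, adjusted p = 0.303) and −0.46 in vWAT (SE 0.25, adjusted p = 0.348). With B cell and muscle covariates the scWAT value was −0.73 (adjusted p = 0.0292), and with the adipocyte covariate −0.87 (adjusted p = 0.03).

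The genes for the last acylation differed from each other. Dgat1 was at 106, 93.9, 107, 132 and 111 CPM in scWAT of HFD trained mice, against 46.1, 57.1, 67.3, 58.4 and 71.4 CPM in HFD sedentary mice. Dgat1 was at 219.8, 90.8, 106, 144 and 98.1 CPM in chow trained mice, against 112, 86.3, 101, 81.7 and 124 CPM in chow sedentary mice. Every HFD sedentary library lay below every library of the other 3 groups. Dgat1 fell with HFD in sedentary mice by 0.74 (SE 0.21, adjusted p = 0.0324) and rose with training on HFD by 0.86 (SE 0.21, adjusted p = 0.0384).

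Both Dgat1 calls lay close to the threshold. The fall was lost when any of HFD sedentary replicates 1, 2, 4 and 5 or chow sedentary replicates 1 and 5 was left out, at −0.77 to −0.66 with adjusted p values of 0.052 to 0.102, and on total counts without TMM it was −0.55 (adjusted p = 0.125). The rise was lost in 9 of 10 fits that left out a library of the compared groups, all but that without HFD sedentary replicate 3, at 0.78 to 0.91 with adjusted p values of 0.0618 to 0.122. In vWAT Dgat1 averaged 115 ± 35.4 CPM in HFD trained, 72.0 ± 22.7 in HFD sedentary, 144 ± 15.0 in chow trained and 105 ± 18.4 CPM in chow sedentary mice (SD, n = 5 each). The fitted change with training on HFD was 0.67 there (SE 0.20, adjusted p = 0.056).

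Dgat2 was called in none of the diet and training comparisons in either depot. In scWAT it averaged 451 ± 79.8 CPM in HFD trained, 358 ± 120.3 in HFD sedentary, 468 ± 373 in chow trained and 351 ± 157 CPM in chow sedentary mice (SD, n = 5 each). The large spread of chow trained mice came from replicate 1 at 1128 CPM, against 216 to 356 CPM in the other 4. The fitted diet change was 0.03 in sedentary mice (SE 0.38, adjusted p = 0.972) and −0.05 in trained mice (SE 0.38, adjusted p = 0.965). In vWAT Dgat2 was at 523 to 614 CPM in HFD sedentary and 242 to 691 CPM in chow sedentary mice, with a fitted change of 0.35 (SE 0.27, adjusted p = 0.543).

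Among the genes of glycerol 3-phosphate supply and use, Gpd2 had the largest diet effect of the 9 in both depots. In scWAT Gpd2 was at 38.2, 149, 86.0, 66.7 and 31.5 CPM in HFD trained mice, against 322, 259.9, 210.2, 167 and 175 CPM in chow trained mice. Gpd2 was at 50.1, 59.6, 51.6, 53.4 and 29.1 CPM in HFD sedentary mice, against 148, 135, 258, 332 and 112 CPM in chow sedentary mice. Within each activity group every HFD library lay below every chow library. Gpd2 fell with HFD by 2.01 on the log2 scale in sedentary mice (SE 0.38, adjusted p = 0.00334) and by 1.61 in trained mice (SE 0.37, adjusted p = 0.0156).

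The fall in vWAT was of similar size with a smaller error. Gpd2 was at 36.9, 26.2, 34.3, 39.6 and 33.9 CPM in HFD trained mice, against 112, 136, 86.1, 116 and 143 CPM in chow trained mice. Gpd2 was at 26.4, 40.7, 30.9, 14.5 and 21.4 CPM in HFD sedentary mice, against 67.6, 81.2, 102, 82.1 and 58.8 CPM in chow sedentary mice. All 10 HFD libraries lay below all 10 chow libraries. Gpd2 fell by 1.54 in sedentary mice (SE 0.21, adjusted p = 1.08e-05) and by 1.78 in trained mice (SE 0.20, adjusted p = 5.87e-07). Within the run of 12 libraries that held all 4 groups the changes were −1.30 (adjusted p = 0.021) and −1.82 (adjusted p = 0.000237). Training changed Gpd2 by 0.60 on chow (SE 0.19, adjusted p = 0.18) and 0.35 on HFD (SE 0.23, adjusted p = 0.52) in vWAT, neither of which passed.

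Pck1, the carboxykinase of glyceroneogenesis, fell with HFD in scWAT of sedentary mice. Pck1 was at 724, 622, 740.4, 344 and 263 CPM in HFD sedentary mice, against 952, 1111, 1442, 938 and 1686 CPM in chow sedentary mice. The groups did not overlap, and the fall was 1.18 log2 units (SE 0.26, adjusted p = 0.00555). In trained mice Pck1 was at 949.6, 1502, 1151, 1054 and 710.2 CPM on HFD, against 1184, 1102, 1230, 1143 and 892 CPM on chow, a difference of −0.05 (SE 0.25, adjusted p = 0.947). The fitted training effect was 0.99 on HFD (SE 0.25, adjusted p = 0.0594) and −0.15 on chow (SE 0.25, adjusted p = 0.998). On HFD it was called with the library run as a factor (1.00, adjusted p = 0.0395). The difference between both training effects was 1.14 (SE 0.36, unadjusted p = 0.0038, adjusted p = 0.495), and 0 of the 9 genes passed that interaction test by edgeR or by DESeq2 in scWAT, with 1 under an unadjusted p of 0.05. By edgeR 0% of all genes passed it. In vWAT Pck1 was at 178 to 571 CPM in HFD sedentary and 462 to 1051 CPM in chow sedentary mice, a change of −1.16 that was not called (SE 0.36, adjusted p = 0.0592). Summed reads of 7 liver genes in vWAT were 87 to 3711 in HFD sedentary and 85 to 458 in chow sedentary libraries. With liver reads as a covariate in edgeR, Pck1 was called in this comparison (−1.28, adjusted p = 0.047). The part of liver RNA in the Pck1 levels was not tested.

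Gpd1, which makes glycerol 3-phosphate from a glycolytic intermediate, also fell with HFD in scWAT of sedentary mice. It was at 245, 165, 248, 237 and 302 CPM in HFD sedentary mice, against 446, 319.9, 723, 763 and 347 CPM in chow sedentary mice. The groups did not overlap, and the fall was 1.11 (SE 0.27, adjusted p = 0.0139), or 0.93 with an adjusted p of 0.0591 without chow sedentary replicate 4. In HFD trained mice Gpd1 was at 327 to 623 CPM, above every HFD sedentary library, but the training effect of 0.96 did not pass (SE 0.27, adjusted p = 0.104). In vWAT Gpd1 averaged 225 ± 82.5 CPM in HFD trained, 182 ± 57.3 in HFD sedentary, 286 ± 73.8 in chow trained and 254 ± 80.8 CPM in chow sedentary mice (SD, n = 5 each), and no comparison passed.

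With the B cell and muscle sums as covariates, the 5 falls with HFD in scWAT of sedentary mice were all called, at −1.56 for Agpat2, −2.14 for Gpd2, −1.25 for Pck1, −0.90 for Dgat1 and −1.24 for Gpd1, with adjusted p values of 0.00445 to 0.0125. Gpd2 in trained mice was at −2.25 (adjusted p = 0.0413), and with training on HFD Dgat1 was at 0.89 (adjusted p = 0.0264) and Agpat2 at 1.42 (adjusted p = 0.093). With the 6 chow libraries that held lymph node transcripts left out, which leaves 2 chow sedentary and 2 chow trained libraries, the diet changes in sedentary mice were −1.72 for Agpat2 (adjusted p = 0.0684), −2.05 for Gpd2 (adjusted p = 0.0534), −1.14 for Pck1 (adjusted p = 0.112), −0.82 for Dgat1 (adjusted p = 0.0909) and −1.28 for Gpd1 (adjusted p = 0.0117), so that 1 of 5 calls was kept, on fewer libraries. Over all libraries these 5 changes were −1.45, −2.01, −1.18, −0.74 and −1.11 in the same order. The part of lymph node RNA in them was not tested. Without the 6 libraries with lymph node transcripts, Gpd2 in trained mice was at −1.84 (adjusted p = 0.0734). With training on HFD, where neither group held such a library, Agpat2 was at 1.44 (adjusted p = 0.0763), Dgat1 at 0.87 (adjusted p = 0.0194), Gpat3 at 0.90 (adjusted p = 0.0235) and Gpd1 at 0.96 (adjusted p = 0.0253). Within the run of 11 scWAT libraries, Agpat2 was at −1.04 (adjusted p = 0.0325), Gpd2 at −2.30 (adjusted p = 0.0336), Pck1 at −1.53 (adjusted p = 0.0599) and Gpd1 at −1.05 (adjusted p = 0.0514) with HFD in sedentary mice. Within the run of 9 they were at −2.25, −1.71, −0.79 and −1.27, with adjusted p values of 0.0943 to 0.473. Gpd2 in trained mice was at −1.55 (adjusted p = 0.092) in the run of 11 and −1.63 (adjusted p = 0.487) in the run of 9, and Agpat2 with training on HFD at 1.25 (adjusted p = 0.0319) and 1.89 (adjusted p = 1).

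Markers of heat-producing beige adipocytes moved with the diet beside these genes. Summed reads of Ucp1, Cidea, Elovl3, Cox8b and Ppargc1a in scWAT were 273 to 1430 in HFD trained and 134 to 526 in HFD sedentary libraries, against 743 to 2132 in chow trained and 668 to 2135 in chow sedentary libraries, with all 5 genes detected in each group. In vWAT 4 of the 5 were detected and Ucp1 was at 0 in all 20 libraries, with sums of 36 to 93 on HFD and 74 to 260 on chow. The vWAT run of 5 chow libraries held 163 to 260 of these reads, and the run of 12 held 36 to 158. In triceps the sums were 944 to 1806, so they do not mark beige adipocytes alone. Adipocyte sums in scWAT were 22449 to 26152 reads in HFD trained and 16165 to 27620 in HFD sedentary mice, against 13791 to 20705 in chow trained and 11401 to 24337 in chow sedentary mice. With the adipocyte covariate of Adipoq, Plin1, Cidec and Fabp4, the falls in sedentary mice were 1.58 for Agpat2, 1.99 for Gpd2, 1.34 for Pck1, 1.22 for Gpd1 and 1.02 for Dgat1. Their adjusted p values were 0.00258 to 0.0271, while Gpd2 in trained mice was at −1.58 with an adjusted p of 0.232. The part of beige adipocytes in these results was not tested.

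In 3 comparisons DESeq2 called more of the 9 genes than edgeR did on all libraries with the filter and no further term. With training on HFD in scWAT it also called Pck1 (0.98, adjusted p = 0.0127), Gpat3 (0.89, adjusted p = 0.0364) and Gpd1 (0.95, adjusted p = 0.0437). With HFD in vWAT of sedentary mice it also called Pck1 (−1.15, adjusted p = 0.0172), Agpat2 (−0.72, adjusted p = 0.0335) and Gpat3 (−0.81, adjusted p = 0.049), and with training on chow in vWAT Agpat2 (0.97, adjusted p = 0.00769).

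With training on chow in scWAT 0 of 9 genes were called by edgeR and by DESeq2, with 3 under an unadjusted p of 0.05, where 0% of all genes were called by edgeR. The 3 were Gpam, Gpat3 at 0.56 (SE 0.25, adjusted p = 0.882) and Agpat2 at 0.65 (SE 0.29, adjusted p = 0.882). The median log2 fold change of the 9 genes was 0.41 there, against −0.0007 over all genes tested. In vWAT the interaction test passed for 0 of 9 genes by either tool, with 1 under an unadjusted p of 0.05, where 0.0143% of all genes were called by edgeR.

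In triceps, Gpd2 fell with training on HFD. It was at 57.2, 49.4, 37.5, 62.4 and 71.9 CPM in HFD trained mice, against 84.0, 109, 93.7, 74.3 and 73.1 CPM in HFD sedentary mice. On chow it was at 48.4, 73.6, 44.3, 79.4 and 74.0 CPM in trained mice, against 82.1, 79.5, 74.8, 71.4 and 93.0 CPM in sedentary mice. The groups on HFD did not overlap by a narrow margin (71.9 CPM as the highest trained and 73.1 CPM as the lowest sedentary library), while those on chow did. The fall on HFD was 0.63 log2 units (SE 0.18, adjusted p = 0.0231), where 5.35% of all genes were called, 3.33% higher and 2.02% lower. It was lost when replicate 2 or 3 of either HFD group was left out, at −0.60 to −0.53 with adjusted p values of 0.0699 to 0.103. On chow the change was −0.32 (SE 0.18, adjusted p = 0.532), and the interaction was −0.31 (SE 0.25, adjusted p = 0.986).

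Dgat2 in triceps was at 10.3, 21.6, 22.8, 14.9 and 10.9 CPM in HFD trained mice, against 6.56, 1.33, 5.00, 9.29 and 12.2 CPM in HFD sedentary mice. On chow it was at 17.1, 17.3, 11.9, 12.8 and 25.6 CPM in trained mice, against 3.04, 17.9, 17.4, 1.40 and 4.23 CPM in sedentary mice. The groups overlapped on both diets, the libraries held 1 to 19 counts of the gene, and the changes of 1.19 on HFD (SE 0.45, adjusted p = 0.13) and 0.90 on chow (SE 0.43, adjusted p = 0.435) were not called. Within the run of 12 triceps libraries the change on HFD was 1.68 (adjusted p = 0.035). Adipocyte reads in triceps were 208 to 356 in HFD trained and 190 to 358 in HFD sedentary libraries, against 215 to 492 in chow trained and 202 to 576 in chow sedentary libraries. By run, they were 452 to 576 in the 5 chow libraries of 1 run. They were 190 to 370 in the run of 12 and 208 to 323 in the run of 3 HFD libraries. Diet and run can therefore be told apart only in part in triceps. Gpam, Lpin1 and Gpd1 had changes between −0.30 and 0.25 in all diet and training comparisons. With HFD 0 of the 5 tested genes were called in sedentary and in trained mice by edgeR and DESeq2, with 0 under an unadjusted p of 0.05 in both, where 0% of all genes were called by edgeR. With training on chow 0 of 5 were called by both tools, with 1 (Dgat2) under an unadjusted p of 0.05, where 0.748% of all genes were called. For the interaction 0 of 5 were called with 0 under that p, where 0% of all genes were called.

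The depots of the same mice differed in the level of 7 of the 9 genes, averaged over the 4 groups with the animal as a block. In this joint fit 27.5% of all genes were called, 13.3% higher and 14.2% lower in scWAT. Higher in scWAT than in vWAT were Gpd2 by 1.07 log2 units (SE 0.14, adjusted p = 1.02e-06), Gpd1 by 0.97 (SE 0.10, adjusted p = 9.01e-09), Pck1 by 0.73 (SE 0.12, adjusted p = 5.2e-05), Agpat2 by 0.40 (SE 0.10, adjusted p = 0.00289) and Lpin1 by 0.27 (SE 0.10, adjusted p = 0.0359). Lower in scWAT were Dgat2, at −0.50 (SE 0.10, adjusted p = 0.000327), and Gpam, at −0.31 (SE 0.10, adjusted p = 0.0221). Gpat3 and Dgat1 did not pass, at −0.07 (SE 0.13) and −0.05 (SE 0.10). All 3 genes of glycerol 3-phosphate supply and use were thus among those higher in scWAT, while the acylation genes were split. Without the animal block, Gpd2, Gpd1, Pck1 and Agpat2 kept their calls, and Lpin1 at 0.28 (adjusted p = 0.118), Dgat2 at −0.44 (adjusted p = 0.0551) and Gpam at −0.28 (adjusted p = 0.099) did not. The depots fell in different inferred library runs, so depot and run cannot be told apart. They also differed in other tissue reads. Summed reads of the 7 muscle genes were 49 to 52437 in scWAT and 10 to 2042 in vWAT, and 6 scWAT libraries held lymph node transcripts. Sums of the 5 beige adipocyte genes were 134 to 2135 in scWAT and 36 to 260 in vWAT. The part of such RNA in the depot differences was not tested.

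**Figure D4:**
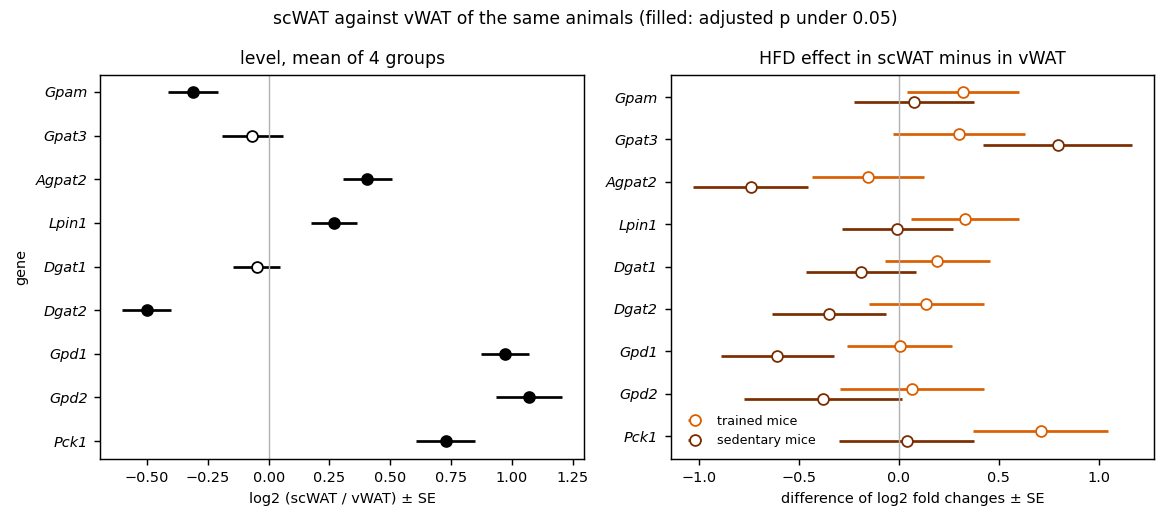
Left, log2 ratio of the level in scWAT to that in vWAT of the same mice for each of the 9 genes, with its SE. Right, the diet effect in scWAT minus that in vWAT in trained and sedentary mice. On the left 7 symbols are filled (adjusted p under 0.05), and on the right none is.

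The HFD effect in each activity group and the training effect on HFD were compared between depots, and no gene of the 9 passed. The training effect on chow was not compared between depots. The difference of the HFD effect in sedentary mice passed for 0 of 9 (1.61% of all genes called), with 3 under an unadjusted p of 0.05: Agpat2 at −0.74 (SE 0.29, adjusted p = 0.236), Gpd1 at −0.61 (SE 0.28, adjusted p = 0.358) and Gpat3 at 0.79 (SE 0.37, adjusted p = 0.364). In trained mice it passed for 0 of 9 (0.542% called), with Pck1 at 0.71 (SE 0.34, adjusted p = 0.415) under an unadjusted p of 0.05. The difference of the training effect on HFD passed for 0 of 9 (0% called), with Gpd1 at 0.68 (SE 0.28, adjusted p = 1) under an unadjusted p of 0.05. All are edgeR's results, and no other tool was run on the joint fit.

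The other genes of the pathway were 22 genes, of which 13 passed the filter in scWAT, 14 in vWAT and 8 in triceps. In scWAT of sedentary mice 2 of 13 were lower with HFD: Pcx, the pyruvate carboxylase that feeds glyceroneogenesis, at −1.17 (SE 0.27, adjusted p = 0.0111), and the acyltransferase gene Agpat3 at −0.73 (SE 0.18, adjusted p = 0.0126). The median of the 13 was −0.17. In trained mice 0 of 13 passed in scWAT by edgeR and by DESeq2, with 3 by edgeR under an unadjusted p of 0.05. In vWAT 2 of 14 were lower in sedentary mice, Pcx at −1.10 (SE 0.20, adjusted p = 0.000887) and Mogat1, a monoacylglycerol acyltransferase gene, at −1.25 (SE 0.22, adjusted p = 0.000363), and Pcx alone was lower in trained mice (−1.06, SE 0.20, adjusted p = 0.0018). Pcx was therefore called lower beside Gpd2 in 3 of the 4 diet comparisons in fat.

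Acsl1, which encodes a long-chain acyl-CoA synthetase that activates fatty acids, was the gene of the 22 that rose with training. It rose by 0.95 in scWAT on HFD (SE 0.23, adjusted p = 0.0347), by 0.71 in vWAT on chow (SE 0.15, adjusted p = 0.0179) and by 0.61 in triceps on HFD (SE 0.16, adjusted p = 0.0188), as 1 of 13, 1 of 14 and 1 of 8 genes tested. None of the 14 passed with training on HFD in vWAT by edgeR or by DESeq2, with 5 by edgeR under an unadjusted p of 0.05. Between depots 8 of 15 differed in level. Acsl1 at 0.87 (SE 0.09), Gpat4 at 0.57 (SE 0.10) and Agpat3 at 0.53 (SE 0.10) were higher in scWAT. Mogat2, another monoacylglycerol acyltransferase gene, at −2.31 (SE 0.31), Bscl2, the seipin gene, at −0.44 (SE 0.08), and Plpp3 at −0.54 (SE 0.11), Plpp1 at −0.40 (SE 0.11) and Mogat1 at −0.44 (SE 0.13) were lower.

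Genes whose group means followed those of each gene most closely were listed by Pearson's correlation of mean log2 CPM, centred within each tissue. The points share libraries and scaling, so the correlations are a description. Over the 12 group means of 3 tissues and 3829 genes, Gpd2 was closest to Me1, the cytosolic malic enzyme (0.989), to the pseudogene Gpx4-ps2 (0.966) and to Acacb, an acetyl-CoA carboxylase (0.96). Gpam was closest to Gpat4, another acyltransferase of the same step (0.931), then Mrpl1 (0.924) and Bhlhe40 (0.923). Lpin1 was closest to Dkc1 (0.948), Ppp1r1a (0.946) and Aldh4a1 (0.942), Gpd1 to H1f0 (0.949), Ddrgk1 (0.945) and Rplp2 (0.919), and Dgat2 to Tmod3 (0.915), Klhl7 (0.908) and Rtcb (0.894).

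For the 4 genes too low to test in triceps the measure ran over 8 group means and 6524 genes. Agpat2 was closest to Dgat1 (0.983), Inca1 (0.982) and Eif3g (0.982), and Dgat1 to Rbck1 (0.997), Dkc1 (0.989) and Agpat2. Gpat3 was closest to Smoc1 (0.979), Adgrg2 (0.977) and Nsmce1 (0.975), and Pck1 to Clpp (0.988), Uqcrc2 (0.983) and Ephx2 (0.983). Within the 9 genes, Dgat2 had correlations of 0.475 to Gpat3, 0.323 to Agpat2, 0.279 to Dgat1 and −0.07 to Pck1 over 8 means. Over 12 means it had 0.309 to Gpam, 0.0581 to Lpin1, −0.14 to Gpd1 and −0.30 to Gpd2. Gpat3 and Gpd2 were at 0.349 over 8 means.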

How the data were processed

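Bulk 3′ RNA libraries of scWAT, vWAT and triceps were quantified with Salmon 0.14.2 on mm10, per the submitters' processing notes. Estimated counts per gene had been rounded to whole numbers by the authors before they were deposited. The authors' log2 values of CPM plus 1 served only to check the unit. How strand and molecular identifiers were handled is not given in the sources used here, so limits for a count of 0 cover counting error only. Of the 54352 genes, 26846 had no count.

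Each tissue was fitted with edgeR 4.0.16 (R 4.3.3): TMM, filterByExpr by group, and a robust quasi-likelihood model over 20 libraries and 4 group means. Genes tested were 7069 (scWAT), 6990 (vWAT) and 4410 (triceps), and p values were adjusted by Benjamini-Hochberg over all of them. The joint fit of scWAT and vWAT tested 7931 genes with the animal, read from the sample titles, as a block. Each SE is the change divided by the root of its F statistic. Levels are TMM-scaled CPM, given as mean ± SD over mice. Against total counts, TMM moved log2 fold changes by −0.27 to −0.18 for diet in fat, by 0.03 to 0.13 for training in fat and by −0.07 to 0.19 in triceps; changes are relative to the TMM scale. The fit was tested on simulated data.

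The named genes are the 9 members, the called genes among 22 other pathway genes (up to 4 per direction) and the 3 genes most like each member. Members and lists were chosen with earlier results of these data known. Library runs are blocks of 12 consecutive library codes in the headers, placed where reads of unsampled organs changed. Alternatives were DESeq2 1.42.0, other normalisations, no filter, a replicate block, run as a factor or within runs, covariates and left-out libraries. No pair among 120 within groups was identical. With 3′ tags, reads of Gpx4-ps2 and its parent gene cannot be safely divided.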

Additional observations from a re-analysis of the deposited data

Results flagged for a closer look

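Over the 92 groups of 5 libraries checked (9 genes in fat and 5 in triceps), 8 held a library whose gap to its neighbour was large for the range of its group. For independent groups of normally distributed values chance would give about 1 in 20. The check ran on CPM without a log, the groups share libraries, and every flagged library was the highest of its group. The 8 can therefore not be set against that rate. In scWAT, chow trained replicate 1 was apart for Dgat2 at 1128 CPM, for Gpam at 205.3 CPM and for Gpat3 at 93.7 CPM, and was the highest of its group in 7 of the 9 genes. In vWAT, HFD trained replicate 2 and chow trained replicate 3 were each the lowest of their group in 8 of the 9 genes. In scWAT, HFD trained replicate 3 was apart for Agpat2 at 728.6 CPM, and chow sedentary replicate 3 for Lpin1 at 502 CPM. In vWAT, HFD trained replicate 5 was apart for Dgat2 at 988.1 CPM and for Gpd1 at 372.4 CPM, and HFD sedentary replicate 5 for Gpd1 at 284.3 CPM. Both vWAT libraries are of the run that held muscle and intestinal reads, and the part of those reads in these values was not tested.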

How the results depend on the processing

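Of 23 called values of the 9 genes, 13 stayed called in all fits that left out a library or animal, and 8 kept it under every other setting run. In scWAT, the 5 calls with HFD in sedentary mice became 0 within the run of 9, 2 within the run of 11 and 1 without the 6 lymph node libraries. Smaller moves of a count are not listed here. Examples in this comparison are the loss of Dgat1 on total counts and the gain of Lpin1 with B cell and muscle covariates or the adipocyte covariate. The 1 call in trained mice became 2 with no filter, and 0 within the run of 9, without the lymph node libraries and with the adipocyte covariate. The 2 calls with training on HFD became 1 on total counts, 6 with no filter, 4 with the run as a factor, 5 by DESeq2, 0 and 1 within the runs of 9 and 11, and 1 with B cell and muscle covariates. The 0 calls with training on chow and for the interaction became 1 each with no filter. In vWAT, the 1 call with HFD in sedentary mice became 3 with no filter, 4 by DESeq2 and 2 with the liver covariate. The 2 in trained mice became 1 on total counts, with the run as a factor and within the run of 12. The 3 with training on HFD became 5 with no filter, and 1 within the run of 12 and without the 3 libraries with muscle and intestinal reads. The 1 with training on chow became 2 with no filter and by DESeq2, 0 within the run of 12 and 3 with the adipocyte covariate. In triceps the 1 with training on HFD became 2 within the run of 12. Fits within runs and without libraries hold fewer samples; otherwise the cause was not tested. The value that turned its sign with a call was Dgat2 with HFD in trained mice in scWAT, at 0.83 (adjusted p = 0.0469) within the run of 11, against −0.05 over all libraries.

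Leaving out each library in turn gave 4 to 5 and 1 calls for diet in scWAT (sedentary, trained) and 0 to 3 for training on HFD there, with 0 when replicate 1 of HFD sedentary or replicate 3 of HFD trained mice was left out and 1 when any of HFD sedentary replicates 2, 4 and 5 or HFD trained replicates 1, 2 and 4 was. In vWAT the range was 1 to 4 for diet in sedentary mice, with 2, 4 and 3 without chow sedentary replicate 3 and HFD sedentary replicates 2 and 3, and 1 to 3 in trained mice, with 1 without chow trained replicate 5 or HFD trained replicate 1 or 2. It was 1 to 4 for training on HFD, with 1 without HFD sedentary replicate 5, and 1 to 2 on chow, with 2 without chow sedentary or chow trained replicate 3. In triceps it was 0 to 1, and for the depot level 6 to 7. Within a tissue, replicate numbers did not pair the samples: same-numbered libraries correlated at −0.19 to 0.56 (scWAT), −0.20 to 0.28 (vWAT) and −0.26 to 0.19 (triceps), and 7, 4 and 3 of 20 correlated best with their own number. With a replicate block, calls with training on HFD were 4 in scWAT, with Pck1 (1.02, adjusted p = 0.0266) and Gpat3 (0.92, adjusted p = 0.045) added, and 2 in vWAT, without Gpam (0.70, adjusted p = 0.0649), and no other count changed. Without the animal block the 7 depot calls became 4.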
